A study of Mus musculus with 6 samples.

Results

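The translation initiation factor genes of mouse CD8+ T cells were measured after culture with an inhibitor of vitamin B6-dependent enzymes. Every row of the deposited gene count table whose symbol begins with Eif1 to Eif6 was taken. The eIF2α kinases (Eif2ak) and the X- and Y-linked genes of the eIF2γ subunit (Eif2s3x, Eif2s3y) were left out. This gave 47 of the 11922 genes in the table, of which 44 were initiation factors or genes named as such and 3 encoded eIF4E-binding proteins, which are described apart. All 47 passed the filter on low counts.

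CD8+ T cells were isolated from spleens of C57BL6/J mice with CD8α-binding magnetic beads. They were activated for 72 hours with anti-CD3/anti-CD28 beads and recombinant human IL-2 at 100 units per ml. The activating beads were then removed and the cells expanded for 4 days. Vehicle cultures received water, and AOA cultures received 0.25 mM aminoxyacetic acid, an inhibitor of enzymes that use pyridoxal phosphate, for 7 days. Each of 3 donor mice gave 1 vehicle and 1 AOA library, so that activation, IL-2 and strain were shared by all 6 libraries. The comparison of AOA with vehicle asked how RNA levels stood in cells that had gone through activation and expansion with these enzymes inhibited.

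Initiation is the step at which a ribosome is placed on the start codon of an mRNA. The cap at the 5′ end of the mRNA is bound by eIF4E, which together with the scaffold eIF4G and the helicase eIF4A forms eIF4F. The small ribosomal subunit carries eIF1, eIF1A, eIF3, eIF5 and the initiator tRNA bound to eIF2, and scans to the start codon, after which eIF5B joins the large subunit. Activated T cells raise protein synthesis as they grow and divide, and eIF4E-binding proteins, which mTORC1 phosphorylates, can hold eIF4E away from eIF4G.

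The libraries held 12881962 to 21997078 counted reads. The first principal component of log2 CPM (counts scaled to the size of each library) carried 80.3% of the variance and separated AOA from vehicle, and the second carried 10.7% and set vehicle 2 apart at -43.7, against 21.3 and 19.8 for the other vehicle libraries. AOA 1 also differed from AOA 2 and AOA 3, with on average relatively more counts in short genes, which is described below for eIF3. The markers of CD8 T cells (5 of 5 in the table) summed to 2910 to 3740 CPM in vehicle and 3990 to 4640 CPM in AOA, and none of the 5 erythroid markers was in the table. The marker Cd4 stood at 63.1 to 119 CPM in vehicle and 5.65 to 12.2 CPM in AOA, the 3 of 5 myeloid markers in the table at 40.8 to 54.2 and 0.873 to 3.33 CPM, the 2 NK cell markers at 20.1 to 114 and 3.53 to 11.6 CPM, and the 4 B cell markers at 12.6 to 16.6 and 22.6 to 30.7 CPM. The myeloid sum was mostly Itgam and the NK cell sum mostly Klrb1c. Of the defining markers, Lyz2 and Ncr1 were at 0 in vehicle 1 and vehicle 3, Cd14 was at 0 in AOA 1 and AOA 3, and Csf1r and Adgre1 had no row. The part of these other cells in the results was not tested, and in bulk RNA fewer cells of a type cannot be told apart from less RNA per cell.

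Of the 44 initiation factor genes, 17 were higher and 5 lower in AOA than in vehicle, and 22 did not pass the test. The called genes made up 50.0% of the factors, near the 53.0% called among all 11759 genes tested (edgeR's quasi-likelihood test, adjusted p under 0.05). The 17 higher genes were 38.6% of the factors, where 26.2% of all genes tested were called higher, and the 5 lower genes were 11.4%, where 26.8% were called lower. The median log2 fold change was 0.20 over the factors and -0.02 over all genes tested, with a range from -0.76 to 1.86 among the factors. Without vehicle 2 the median of the factors was 0.30. In 22 of the 44 genes no AOA library overlapped a vehicle library, a pattern seen in 62.1% of all genes tested; 17 of these were higher and 5 lower, against 31.0% and 31.1% of all genes. A log2 fold change of at least 1 with a call was reached by 5 factors, Eif5a, Eif4e, Eif2s1, Eif4a1 and Eif1a, all of them higher in AOA. That is 11.4% of the factors, near the 12.1% of all genes tested that were called higher by at least as much. No factor was lower by as much, where 14.1% of all genes were, and over both directions 26.2% of all genes passed this limit. Without vehicle 2, which stood apart, 22 factors were called, 18 higher and 4 lower, beside 57.6% of all genes tested in that refit. Without AOA 1 it was 25, 21 higher and 4 lower, beside 50.0% of all genes. The count of lower genes was 2 without vehicle 1, without vehicle 3 or without AOA 3, when Eif1 and Eif4g3 were the genes left, and 3 without AOA 2. The calls among all genes tested also fell in these refits, to 41.9%, 43.4%, 42.6% and 45.8%.

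**Figure D1:**
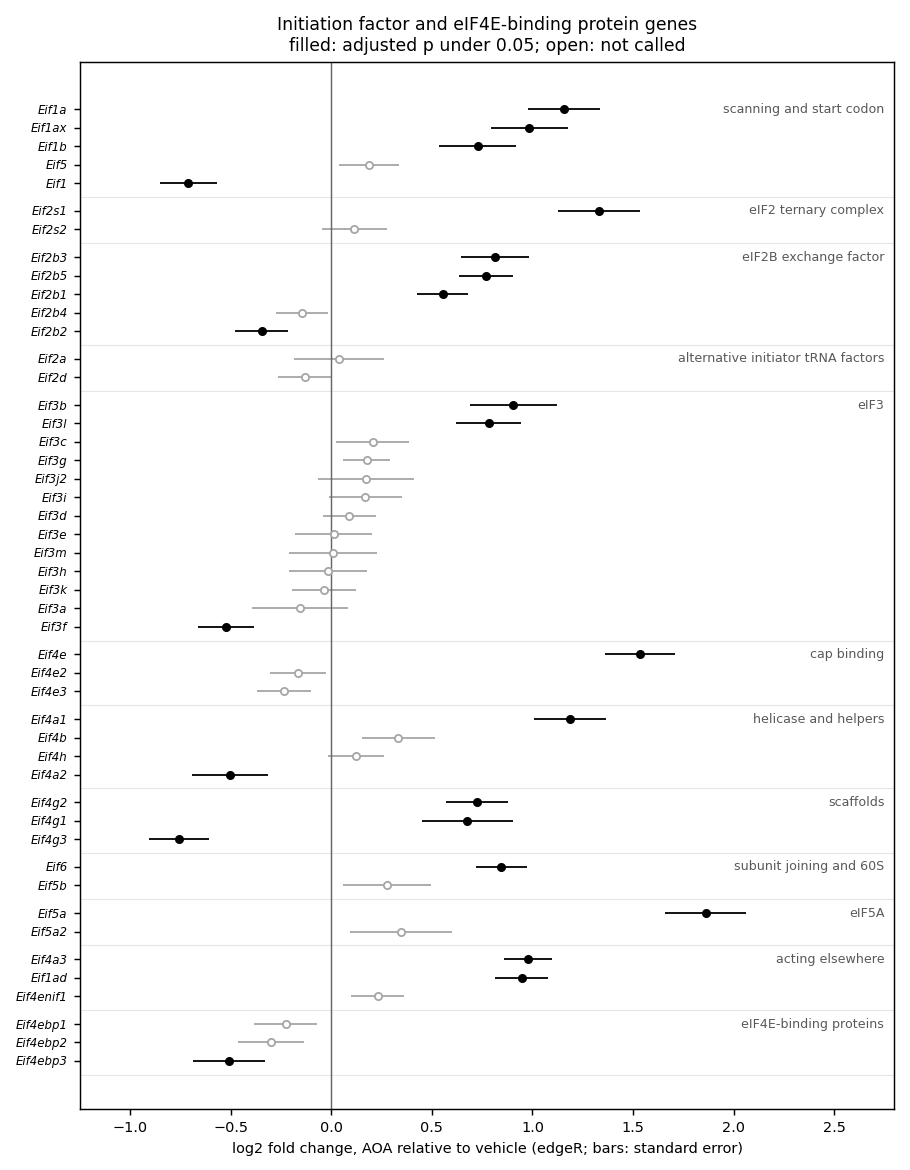
Log2 fold change of each factor gene and each eIF4E-binding protein gene, AOA minus vehicle, with bars of 1 standard error, grouped by role. Filled points passed the test and open points did not. The rise of Eif5a (1.86) and Eif4e (1.54) and the fall of Eif4g3 (-0.76) and Eif1 (-0.71) mark the ends of the range.

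Promoter sequence was examined for the factors because Eif4e and other growth-related genes carry E-boxes, the sites read by MYC-family proteins. RefSeq start sites with the mouse build GRCm38.p6 gave 300-base windows (250 before to 50 after a start) for 35 of the 44 factor genes, and the E-box CACGTG was searched. It reads the same on both strands and no other motif was searched. At least 1 match was present in 10 of the 35 genes (28.6%), against 1131 of 9564 genes of the table with a window (11.8%). Of the 13 higher genes with a window, 5 held it (Eif5a, Eif4e, Eif4a1, Eif1b and Eif4g1). It was also present in 1 of the 5 lower genes (Eif3f), and in 4 of the 17 with a window that were not called (Eif5a2, Eif4h, Eif3k and Eif3a). A match is a description of these letters and does not show that a protein was bound there.

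Sequences just before a RefSeq start of the leading cap-complex genes and Eif5a are shown beside those of Eif4a2 and Eif1, which were lower and held no match, with the E-box in capitals. These genes were picked and do not show how matches were spread by direction. Higher genes without a match, and the lower gene Eif3f with one, are not printed. Windows were trimmed to the longest part outside annotated exons of the gene. For Eif4e that part held no match, so stretches of 30 bases around each match are given without this trimming. The stretches of Eif5a, Eif4e and Eif4g1 lie inside the span that GENCODE gives these genes, since other transcripts start further upstream. For a gene with several RefSeq starts, the start with the most matches before it was preferred, so the stretches shown favour a match. The matches begin 74 bases before the start shown in Eif5a, 189 in Eif4a1, 54 in Eif4g1, and 228 and 64 in Eif4e.
Eif5a, chr11:69921387-69921636, minus strand: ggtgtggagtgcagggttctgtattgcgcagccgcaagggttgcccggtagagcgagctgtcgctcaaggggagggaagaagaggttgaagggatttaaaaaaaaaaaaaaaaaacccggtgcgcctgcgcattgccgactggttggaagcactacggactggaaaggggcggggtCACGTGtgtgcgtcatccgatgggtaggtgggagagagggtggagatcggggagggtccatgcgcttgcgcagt
Eif4e upstream match, chr3:138527028-138527057, plus strand: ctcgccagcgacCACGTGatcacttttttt
Eif4e match nearer the start, chr3:138527192-138527221, plus strand: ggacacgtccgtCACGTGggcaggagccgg
Eif4a1, chr11:69672424-69672673, minus strand: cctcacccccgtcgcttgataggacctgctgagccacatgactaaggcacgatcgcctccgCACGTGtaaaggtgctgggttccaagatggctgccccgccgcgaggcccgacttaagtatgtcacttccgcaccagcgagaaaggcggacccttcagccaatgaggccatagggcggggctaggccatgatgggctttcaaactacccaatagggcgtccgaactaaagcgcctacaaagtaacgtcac
Eif4a2, chr16:23107218-23107443, plus strand: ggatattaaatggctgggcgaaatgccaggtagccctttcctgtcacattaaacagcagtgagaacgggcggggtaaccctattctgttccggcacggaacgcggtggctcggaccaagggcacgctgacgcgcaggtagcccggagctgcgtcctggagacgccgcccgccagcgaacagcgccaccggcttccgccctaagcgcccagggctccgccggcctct
Eif4g1, chr16:20672477-20672722, plus strand: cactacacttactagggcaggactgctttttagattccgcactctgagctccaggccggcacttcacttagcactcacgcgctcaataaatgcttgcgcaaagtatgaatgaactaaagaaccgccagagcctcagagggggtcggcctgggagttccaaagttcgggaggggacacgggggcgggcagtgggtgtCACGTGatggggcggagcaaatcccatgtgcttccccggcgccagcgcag
Eif1, chr11:100319699-100319884, plus strand: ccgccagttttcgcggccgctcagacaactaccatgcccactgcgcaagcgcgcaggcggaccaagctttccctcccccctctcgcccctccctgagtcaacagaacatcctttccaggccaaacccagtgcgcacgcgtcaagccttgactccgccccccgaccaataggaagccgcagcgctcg

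Eif4e, the cap-binding subunit of eIF4F (Entrez 13684, chromosome 3, 138526179 to 138559696, plus strand, GRCm38), stood at 5.14, 7.21 and 5.27 RPKM (reads scaled to library size and gene length) in vehicle 1 to 3 and at 19.7, 15.7 and 15.7 RPKM in AOA 1 to 3. Every AOA library was above every vehicle library. The rise was 2.90-fold (log2 fold change 1.54, SE 0.17, adjusted p = 0.000148), from 5.87 ± 1.16 to 17.0 ± 2.3 RPKM (SD, n = 3). Its relatives were not called. Eif4e2, a cap-binding protein better known for repressing translation, was at 30.7, 29.1 and 32.7 RPKM in vehicle and 31.7, 25.9 and 25.0 RPKM in AOA (log2 fold change -0.17, adjusted p = 0.342). Eif4e3, another cap-binding family member, was at 31.3, 27.4 and 35.2 RPKM in vehicle and 26.1, 27.9 and 25.6 RPKM in AOA (log2 fold change -0.24, adjusted p = 0.167). Groups overlapped for both.

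The level of Eif4e relative to its relatives was followed within each library, which needs no scaling between libraries. The log2 ratio of Eif4e to Eif4e2 was -2.58, -2.01 and -2.63 in vehicle and -0.69, -0.72 and -0.67 in AOA. Per length, Eif4e RNA thus stood at 0.188 of Eif4e2 in vehicle and 0.619 in AOA, and remained below it in all 6 libraries. Against Eif4e3 the ratio went from 0.186 to 0.638. For each pair the AOA libraries all lay above the vehicle libraries. An exact two-sided permutation test of 3 against 3 cannot give a p below 0.1, which both ratios reached (adjusted p = 0.15 over the 9 pairs tested, exact permutation). Exchanging signs within mice, which respects the pairing, cannot give an exact p below 0.25, and every ratio given here with an exact permutation p of 0.1 had 0.25 under it.

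The helicase genes of eIF4A moved in opposite directions. Eif4a1, the main eIF4A in dividing cells (Entrez 13681, chromosome 11, 69666936 to 69672423, minus strand), was at 129.9, 188 and 149 RPKM in vehicle and 398, 335 and 331 RPKM in AOA. The groups were far apart, and the gene rose 2.27-fold (log2 fold change 1.19, SE 0.18, adjusted p = 0.000632). Eif4a2, its close paralog (chromosome 16, 23107444 to 23114136, plus strand), was at 156, 129 and 119 RPKM in vehicle and 117, 76.9 and 90.4 RPKM in AOA. It fell by 0.51 on the log2 scale (SE 0.19, adjusted p = 0.0475), with AOA 1 just under the lowest vehicle library. That call was lost when vehicle 1, vehicle 2, vehicle 3, AOA 2 or AOA 3 was left out. Per deposited gene length, both paralogs were thus at a like level in vehicle, and in AOA Eif4a1 led in every library. The ratio of Eif4a1 to Eif4a2 was 1.15 in vehicle and 3.78 in AOA. In CPM, which is not scaled to length, Eif4a2 was above Eif4a1 in every vehicle library (509.6, 419.7 and 389.8 against 244.2, 354.0 and 280.7). Their log2 ratio was -0.27, 0.55 and 0.32 in vehicle and 1.76, 2.12 and 1.87 in AOA, a difference of 1.72 (exact permutation p = 0.1, the smallest possible). Eif4b and Eif4h, which stimulate the helicase, were not called. Eif4b was at 178, 221 and 195 RPKM in vehicle and 198, 270.4 and 279.8 RPKM in AOA (log2 fold change 0.33, adjusted p = 0.154). Eif4h was at 147, 130.2 and 156 RPKM in vehicle and 147, 165 and 159 RPKM in AOA (0.12, adjusted p = 0.49). Without AOA 1, which was close to vehicle for Eif4b, Eif4b was called higher (log2 fold change 0.48, adjusted p = 0.0223).

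The 3 eIF4G scaffolds also split. Eif4g3 (Entrez 230861, chromosome 4, 137993022 to 138208508, plus strand), a second full scaffold that binds eIF4E and eIF4A, was at 39.5, 38.4 and 35.2 RPKM in vehicle and 18.5, 24.7 and 23.6 RPKM in AOA. All AOA libraries lay below all vehicle libraries. It fell by 0.76 on the log2 scale, or 1.69-fold (SE 0.15, adjusted p = 0.00252). Eif4g2 (chromosome 7, 111067750 to 111083030, minus strand), a relative without the eIF4E-binding part, was at 94.4, 116 and 102 RPKM in vehicle and 179, 168 and 169 RPKM in AOA. It rose with no overlap (log2 fold change 0.72, SE 0.16, adjusted p = 0.00394) and was the most abundant of the scaffolds in both vehicle and AOA.

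Eif4g1, the main scaffold (chromosome 16, 20668313 to 20692884, plus strand), was at 63.9, 86.7 and 62.2 RPKM in vehicle and 80.0, 135 and 125 RPKM in AOA. It passed the test (log2 fold change 0.68, SE 0.23, adjusted p = 0.0306), although AOA 1 fell below vehicle 2. The call was lost without vehicle 1, vehicle 3, AOA 2 or AOA 3, with adjusted p between 0.0937 and 0.101. Relative to Eif4g3, Eif4g1 went from a ratio of 1.86 in vehicle to 5.0 in AOA, and its log2 ratio was 0.69, 1.18 and 0.82 in vehicle and 2.11, 2.45 and 2.40 in AOA. Eif4g1 relative to Eif4g2 had overlapping log2 ratios of -0.56, -0.42 and -0.71 in vehicle and -1.16, -0.32 and -0.44 in AOA (difference -0.07, exact permutation p = 0.9). Without AOA 1 that difference was 0.19.

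**Figure D2:**
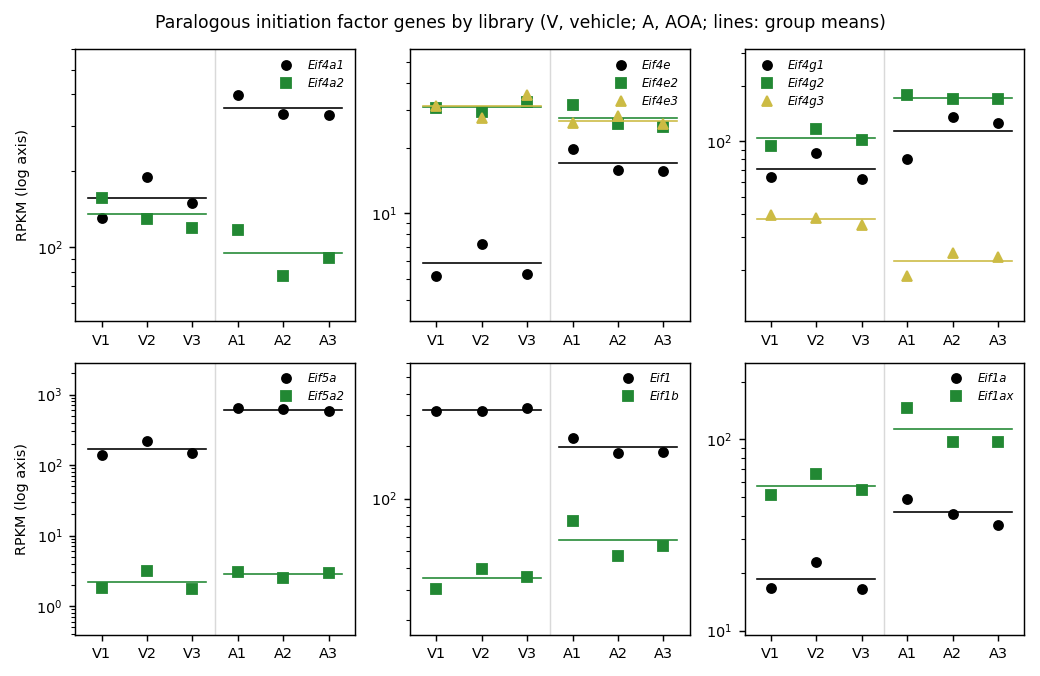
RPKM of the eIF4A, eIF4E, eIF4G, eIF5A, eIF1 and eIF1A family genes in each library, on log axes. Points are single libraries (V vehicle, A AOA), the marker shape names the gene, and lines are group means of 3 libraries. Eif4e, Eif4a1 and Eif5a stand higher in all AOA libraries, and Eif4g3, Eif4a2 and Eif1 lower.

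Eif5a showed the largest rise of the factors (Entrez 276770, chromosome 11, 69916714 to 69921958, minus strand). Its product eases translation through difficult stretches and at termination, and is active only after a lysine is turned into hypusine with spermidine as donor. The gene was at 139, 217 and 149.7 RPKM in vehicle and 644, 617 and 576 RPKM in AOA. Vehicle 2 was the highest control and still lay far under every AOA library. The rise was 3.63-fold (log2 fold change 1.86, SE 0.20, adjusted p = 0.000112). Eif5a2, its paralog, was at 1.80, 3.15 and 1.72 RPKM in vehicle and 3.07, 2.48 and 2.93 RPKM in AOA, and was not called (0.35, adjusted p = 0.275). Vehicle 2 was the highest library for Eif5a2, and without it the gene was called higher (log2 fold change 0.72, adjusted p = 0.00786). The ratio of Eif5a to Eif5a2 stood at 77.4 in vehicle and 217 in AOA, with no overlap of libraries (exact permutation p = 0.1). Of the enzymes that make hypusine, Dhps was called higher (log2 fold change 0.53, adjusted p = 0.023), although its adjusted p reached 0.0686 when a single library was left out. Dohh was not called (0.38, adjusted p = 0.0701). These enzymes were singled out after their values were seen.

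Among the factors that act in scanning and start codon choice, Eif1a, Eif1ax and Eif1b rose, Eif1 fell and Eif5 was not called. Eif1 (Entrez 20918, chromosome 11, 100319885 to 100322096, plus strand), which keeps the scanning ribosome from stopping at poor start codons, was at 318, 318 and 331 RPKM in vehicle and 223, 183 and 184 RPKM in AOA. The AOA libraries were all lower, and the gene fell by 0.71 on the log2 scale (SE 0.14, adjusted p = 0.00267). Eif1b, a close paralog, was at 30.1, 39.6 and 35.6 RPKM in vehicle and 74.0, 46.9 and 53.7 RPKM in AOA (log2 fold change 0.73, SE 0.19, adjusted p = 0.0109). It remained the less abundant of the pair. The ratio of Eif1 to Eif1b went from 9.23 in vehicle to 3.43 in AOA, and the log2 ratios, 3.40, 3.00 and 3.22 against 1.59, 1.96 and 1.78, did not overlap (exact permutation p = 0.1).

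Eif1a and Eif1ax, which encode near-identical forms of eIF1A, rose together. Eif1a was at 16.7, 22.9 and 16.4 RPKM in vehicle and 48.6, 40.5 and 35.7 RPKM in AOA (log2 fold change 1.16, SE 0.18, adjusted p = 0.000711). Eif1ax was at 51.5, 66.3 and 54.2 RPKM in vehicle and 146, 97.4 and 96.8 RPKM in AOA (0.98, SE 0.19, adjusted p = 0.00232). The groups did not overlap for either gene, and their log2 ratio differed by 0.20 between groups (exact permutation p = 0.2). Only uniquely mapped reads were counted, so levels of such near-identical copies, and of factors with processed pseudogenes, are uncertain. Eif5, the GTPase-activating protein of eIF2, was at 68.3, 89.0 and 73.8 RPKM in vehicle and 92.8, 85.7 and 84.2 RPKM in AOA (0.19, adjusted p = 0.319).

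**Figure D3:**
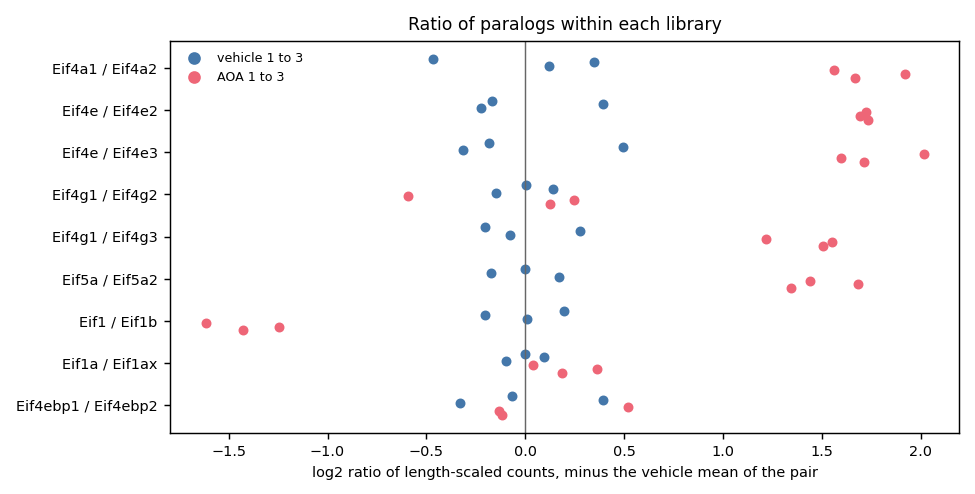
Log2 ratio of length-scaled counts of the paired genes in each library, minus the vehicle mean of that pair, so that 0 is the vehicle level. Points are single libraries in blue for vehicle and red for AOA. The AOA points lie apart from the vehicle points for Eif4a1 over Eif4a2, Eif4e over Eif4e2 and over Eif4e3, Eif4g1 over Eif4g3, Eif5a over Eif5a2 and Eif1 over Eif1b.

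Of the eIF2 complex, which brings the initiator tRNA, the α subunit gene Eif2s1 rose and the β subunit gene did not pass the test. Eif2s1 (Entrez 13665, chromosome 12, 78861819 to 78887010, plus strand), whose product is the target of the eIF2α kinases, was at 27.6, 35.6 and 29.2 RPKM in vehicle and 102, 68.4 and 62.2 RPKM in AOA. AOA 1 was the highest, and the lowest AOA library was still above the highest vehicle library. The rise was 2.52-fold (log2 fold change 1.33, SE 0.20, adjusted p = 0.000706) and lay between 1.09 and 1.48 on the log2 scale when single libraries were left out. Eif2s2 was at 57.3, 55.4 and 57.2 RPKM in vehicle and 76.1, 54.5 and 53.0 RPKM in AOA (0.11, adjusted p = 0.584), so that only AOA 1 stood above the controls.

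The eIF2B complex, which exchanges GDP for GTP on eIF2, had 3 of its 5 subunit genes called higher and 1 called lower, where 26.2% of all genes tested were called higher and 26.8% lower. Eif2b5, the catalytic ε subunit, was at 22.9, 28.8 and 23.1 RPKM in vehicle and 43.6, 42.1 and 41.7 RPKM in AOA (log2 fold change 0.77, SE 0.13, adjusted p = 0.00139). Eif2b3, the γ subunit, had the largest change of the complex, from 2.66, 3.55 and 2.73 to 5.2, 5.14 and 5.37 RPKM (0.81, SE 0.17, adjusted p = 0.00349). Both were higher in every AOA library. Eif2b1, the α subunit, rose by 0.55 (SE 0.13, adjusted p = 0.0054). Eif2b2, the β subunit and the most abundant of the complex in vehicle, was at 44.4, 38.5 and 46.4 RPKM in vehicle and 34.8, 31.2 and 35.6 RPKM in AOA. Its fall of 0.35 was barely past the threshold (log2 fold change -0.35, SE 0.13, adjusted p = 0.0484). It was lost with the mouse as a block (adjusted p = 0.065), in DESeq2 (adjusted p = 0.0544) and without any of vehicle 1, vehicle 3, AOA 1, AOA 2 or AOA 3. Eif2b4, the δ subunit, was at 21.7, 22.6 and 24.3 RPKM in vehicle and 19.3, 22.3 and 20.5 RPKM in AOA (-0.15, adjusted p = 0.361).

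Eif2a and Eif2d, which can bring initiator tRNA without eIF2 and are distinct from the eIF2 subunits, were not called. Eif2a was at 88.3, 51.9 and 93.9 RPKM in vehicle and 94.2, 70.4 and 75.7 RPKM in AOA (0.04, adjusted p = 0.9). Eif2d was at 25.3, 31.0 and 31.5 RPKM in vehicle and 27.9, 26.3 and 25.9 RPKM in AOA (-0.13, adjusted p = 0.428). For Eif2a the lowest library was vehicle 2, and the groups overlapped for both genes.

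Most of eIF3, the multi-subunit platform that holds the small ribosomal subunit and the mRNA, did not pass the test. Of its 13 genes, Eif3b and Eif3l were called higher and Eif3f was called lower, beside 26.2% of all genes tested called higher and 26.8% lower. The median over the complex was 0.09 on the log2 scale. Eif3b, a core subunit (chromosome 5, 140419328 to 140443360, plus strand), was at 58.8, 82.0 and 55.8 RPKM in vehicle and 91.1, 149 and 128 RPKM in AOA (0.91, SE 0.22, adjusted p = 0.00705). Eif3l was at 95.6, 137 and 107 RPKM in vehicle and 189, 202 and 193 RPKM in AOA (0.78, SE 0.16, adjusted p = 0.0033). All AOA libraries lay above vehicle for both genes. Eif3f (chromosome 7, 108934417 to 108942951, plus strand) was at 498, 448 and 495 RPKM in vehicle and 325, 345 and 332 RPKM in AOA. It fell by 0.52 with no overlap (SE 0.14, adjusted p = 0.0115), a call that was lost without vehicle 1 (adjusted p = 0.0572), vehicle 3 (adjusted p = 0.0628) or AOA 3 (adjusted p = 0.0539).

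The other eIF3 genes showed a pattern between the AOA libraries. Eif3h, the most abundant of the complex, was at 571, 571 and 602 RPKM in vehicle and 746, 483 and 493 RPKM in AOA (log2 fold change -0.02, adjusted p = 0.944). Eif3e was at 375, 416 and 422 RPKM in vehicle and 523, 344 and 355 RPKM in AOA (0.01, adjusted p = 0.967). For both, AOA 1 was above and AOA 2 and AOA 3 below all vehicle libraries. Eif3m was at 275, 220.1 and 301 RPKM in vehicle and 357, 216 and 227 RPKM in AOA (0.01, adjusted p = 0.976). Eif3k was at 259, 238 and 271 RPKM in vehicle and 299, 222 and 227 RPKM in AOA (-0.04, adjusted p = 0.86). Eif3i was at 220.5, 246 and 224 RPKM in vehicle and 331, 227 and 218 RPKM in AOA (0.17, adjusted p = 0.457). In these 3 genes too, AOA 1 was the highest library.

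In the 3 longest eIF3 genes AOA 1 was the lowest of the AOA libraries. Eif3a, the largest subunit, was at 125, 122 and 132 RPKM in vehicle and 70.8, 139 and 130.1 RPKM in AOA (-0.16, adjusted p = 0.604). Eif3c was at 137, 151 and 143 RPKM in vehicle and 125, 191 and 182 RPKM in AOA (0.21, adjusted p = 0.365), and was called higher without AOA 1 (0.38, adjusted p = 0.0242). Across the 13 eIF3 genes the log2 CPM of AOA 1 minus the mean of AOA 2 and AOA 3 ran from -0.93 in Eif3a, of 5176 bases, to 0.69 in Eif3m, of 1229 bases. That difference was related to log2 gene length with Pearson's r of -0.844 (Spearman's rho -0.648) over the 13 genes, -0.548 (-0.467) over the 44 factors and -0.484 (-0.498) over all genes tested, all descriptions across genes that share libraries. With the length trend of each library removed, an alternative chosen after seeing the data, eIF3 again had 2 higher genes and 1 lower. Of the 44 factors, 17 were again higher and 5 lower, beside 55.5% of all genes tested that were called in that fit. Without AOA 1, 4 eIF3 genes were called, 3 higher and 1 lower, beside 50.0% of all genes tested in that refit.

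**Figure D4:**
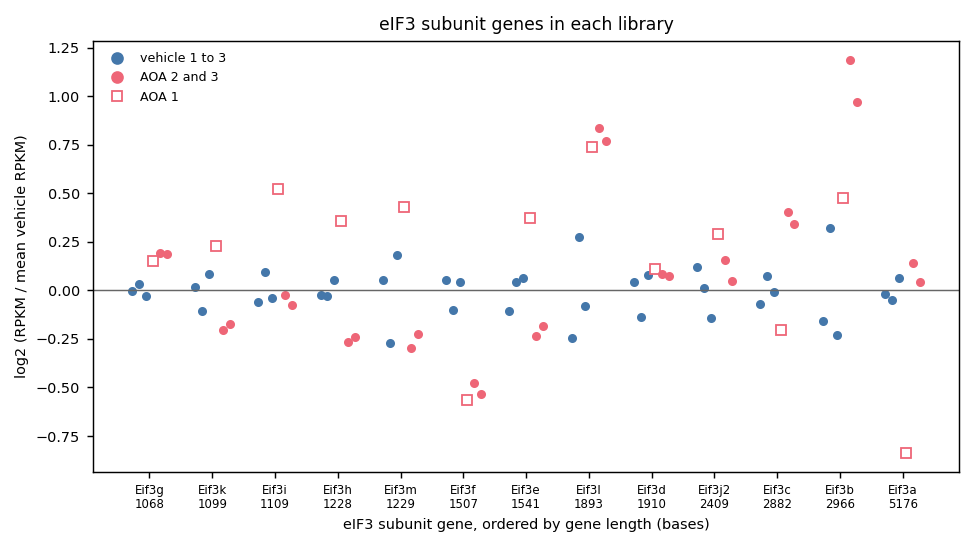
Log2 of the RPKM of each eIF3 gene over its mean in vehicle, by library, with genes ordered by length in bases. Blue points are vehicle, red points AOA 2 and 3, and open squares AOA 1. AOA 1 lies above AOA 2 and AOA 3 in Eif3k, Eif3i, Eif3h, Eif3m and Eif3e and below them in the longest genes Eif3c, Eif3b and Eif3a, but also slightly below them in Eif3g, the shortest, and in Eif3f, while Eif3f is lower and Eif3b and Eif3l higher in all 3 AOA libraries.

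The remaining eIF3 genes were not called. Eif3g was at 119, 122 and 117 RPKM in vehicle and 132, 136 and 136 RPKM in AOA, with no overlap but no call (0.17, adjusted p = 0.229). Eif3d, which can itself bind the cap, was at 167, 147 and 171 RPKM in vehicle and 175, 172 and 170.0 RPKM in AOA (0.09, adjusted p = 0.593). Eif3j2 was the least abundant, at 1.65, 1.53 and 1.37 RPKM in vehicle and 1.85, 1.69 and 1.57 RPKM in AOA (0.17, adjusted p = 0.57), and its reads may be shared with its near-identical copy.

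At the last steps, Eif6, which keeps large subunits from joining too early, rose, and Eif5b was not called. Eif6 was at 36.0, 40.6 and 36.4 RPKM in vehicle and 70.4, 70.6 and 62.1 RPKM in AOA (log2 fold change 0.84, SE 0.13, adjusted p = 0.000597). Eif5b was at 18.1, 21.8 and 18.2 RPKM in vehicle and 15.6, 29.1 and 25.7 RPKM in AOA (0.28, adjusted p = 0.312). AOA 1 was the lowest of all libraries for Eif5b, and without it the gene was called higher (0.50, adjusted p = 0.0191), while without AOA 2 its log2 fold change was 0.096 (adjusted p = 0.751).

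Of the 3 genes whose products act elsewhere despite their names, 2 were called higher, as were 26.2% of all genes tested. Eif4a3, the helicase of the exon junction complex left on spliced mRNA, was at 67.8, 66.9 and 66.9 RPKM in vehicle and 141, 127 and 129 RPKM in AOA (log2 fold change 0.98, SE 0.12, adjusted p = 0.000223). Eif1ad was at 18.1, 22.3 and 19.3 RPKM in vehicle and 37.2, 37.2 and 40.6 RPKM in AOA (0.95, SE 0.13, adjusted p = 0.000413). Groups were well apart for both. Eif4enif1, which carries eIF4E into the nucleus and into RNA granules, was at 24.1, 27.3 and 24.8 RPKM in vehicle and 26.3, 32.0 and 31.0 RPKM in AOA (0.23, adjusted p = 0.172). It was called higher without AOA 1 (0.31, adjusted p = 0.04).

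None of the genes of the eIF4E-binding proteins was called higher, and 1 of the 3 was called lower, where 26.2% of all genes tested were called higher and 26.8% lower; so few genes say nothing about the group. Eif4ebp1 was at 26.4, 32.1 and 24.4 RPKM in vehicle and 25.6, 22.2 and 22.9 RPKM in AOA (log2 fold change -0.23, adjusted p = 0.248). It was called lower with the length trend removed (-0.41, adjusted p = 0.0469), but not when the mouse was also added as a block. Eif4ebp2, the most abundant of the 3, was at 75.8, 66.9 and 84.0 RPKM in vehicle and 49.1, 67.0 and 68.0 RPKM in AOA (-0.30, adjusted p = 0.148). Groups overlapped for both. Eif4ebp3 was at 12.3, 11.8 and 12.6 RPKM in vehicle and 7.27, 9.14 and 9.46 RPKM in AOA, with all AOA libraries below vehicle (-0.51, SE 0.18, adjusted p = 0.0371). Its call was lost with the mouse as a block (-0.51, adjusted p = 0.0508) and without any library other than vehicle 2. Relative to the summed binding-protein RNA per length, Eif4e stood at 0.0503 in vehicle and 0.182 in AOA, with log2 ratios of -4.48, -3.94 and -4.52 against -2.06, -2.64 and -2.68. This ratio was chosen after its values were seen (exact permutation p = 0.1, the smallest possible), and RNA levels do not show the amount or phosphorylation of the proteins.

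The 44 factors together held 1.015%, 1.156% and 1.048% of all counts in vehicle 1 to 3 and 1.358%, 1.363% and 1.338% in AOA 1 to 3. The mean share went from 1.07% ± 0.0738 to 1.35% ± 0.0135 (SD, n = 3), a difference of 0.28 percentage points (exact permutation p = 0.1, the smallest that 3 against 3 allows). With signs exchanged within mice the exact permutation p was 0.25, the smallest that 3 pairs allow. The AOA libraries lay within a narrow range, all above vehicle. Eif5a accounted for 0.0901 points of the difference, Eif4g2 for 0.0536, Eif4a1 for 0.0376, Eif4g1 for 0.0235 and Eif4b for 0.0206, while Eif3f took away the most (-0.0213), followed by Eif1 (-0.0155) and Eif4a2 (-0.0127). Without Eif5a the shares were 0.988%, 1.11% and 1.02% in vehicle and 1.23%, 1.24% and 1.22% in AOA. The median log2 difference of the factors was 0.38, 0.24 and 0.27 in mouse 1, 2 and 3.

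A list of 37 genes that work with the factors was followed beside them, and 18 of the 37 passed the test, 10 higher and 8 lower. This share of 48.6% was near the 53.0% called among all genes tested, of which 26.2% were higher and 26.8% lower. The higher ones with the largest changes were Ncbp2, the cap-binding subunit of the nuclear cap-binding complex, Bzw1, which mimics eIF5, and Abce1, which recycles ribosomes. Ncbp2 was at 22.8, 48.2 and 25.0 CPM in vehicle and 98.2, 89.4 and 82.7 CPM in AOA (log2 fold change 1.49, SE 0.26, adjusted p = 0.00142). Bzw1 rose by 1.20 (adjusted p = 0.000689) and Abce1 by 1.17 (adjusted p = 0.000438). For these 3 genes no AOA library overlapped a vehicle library.

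Among the called partners with at least 10 CPM in the higher group, Ppp1r15a, Gigyf1 and Pdcd4 fell most; Pabpc1l, a poly(A)-binding protein gene under that level, was also called lower (log2 fold change -1.11, adjusted p = 0.0279; up to 0.12 with a single library left out). Ppp1r15a, which directs a phosphatase to eIF2α, was at 43.3, 39.7 and 34.7 CPM in vehicle and 12.5, 14.1 and 12.9 CPM in AOA (log2 fold change -1.58, adjusted p = 5.77e-05). Gigyf1, a partner of the repressor Eif4e2, was at 143, 111 and 114 CPM in vehicle and 44.4, 43.4 and 37.3 CPM in AOA (-1.55, adjusted p = 6.41e-05). Pdcd4, an inhibitor of eIF4A, was at 512, 346 and 542 CPM in vehicle and 218, 254 and 247 CPM in AOA (-0.96, adjusted p = 0.00252). All AOA libraries lay below vehicle in these 3 genes. Mknk1 and Mknk2, the kinases that phosphorylate eIF4E, were also called lower (-0.86 and -0.75), and were singled out after their values were seen. Pabpc1, the main poly(A)-binding protein, was not called (-0.09, adjusted p = 0.734). Nor were Ppp1r15b (0.19, adjusted p = 0.265) and Gigyf2 (-0.23, adjusted p = 0.341), singled out here as relatives of Ppp1r15a and Gigyf1.

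Of the elongation and termination factors, 12 were in the table, 11 were tested and 6 were called, 4 higher and 2 lower, near the 53.0% called among all genes tested. Eefsec, which delivers selenocysteine tRNA, was at 15.5, 15.0 and 18.4 CPM in vehicle and 33.6, 39.6 and 38.4 CPM in AOA (log2 fold change 1.19, adjusted p = 0.00026). The release factor genes Gspt1 and Etf1 rose by 1.07 (adjusted p = 0.000196) and 0.74 (adjusted p = 0.00302), while Gspt2, a further release factor gene, did not pass the filter on low counts and was not tested by edgeR. Gspt2 had a mean of 0.933 CPM in vehicle and 0.188 CPM in AOA (DESeq2 adjusted p = 0.0407). Eef2, the translocase, fell from a mean of 10531 to 6098 CPM (-0.79, adjusted p = 0.0088), and Hbs1l, which rescues stalled ribosomes, was lower as well (-0.66, adjusted p = 0.00285). Eef1a1, which brings aminoacyl-tRNA to the ribosome, was not called (-0.04, adjusted p = 0.883). The median log2 fold change was 0.17 over the tested partners and 0.18 over the elongation and termination genes, near the 0.20 of the initiation factors.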

How the data were processed

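Total RNA of the 6 libraries was prepared with a stranded mRNA kit and sequenced as paired ends. Per the paper and the submitters' processing notes, the authors aligned reads with STAR to mm10 and counted uniquely mapped reads per gene with featureCounts. Strand setting and tool versions were not given in the sources used here. Raw read counts per gene, with a column of gene lengths in bases, were deposited by the authors for 11922 genes.

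All genes passing filterByExpr (minimum count 10) were tested with edgeR 4.0.16 (R 4.3.3; TMM scaling, robust quasi-likelihood fit, group only), p-values were adjusted over all genes tested after Benjamini-Hochberg, and genes under 0.05 were called. CPM and RPKM used TMM-scaled library totals and the deposited lengths. Log2 CPM used a prior count of 2, which was not set for the edgeR fit. The share of counts and the paralog ratios were tested by exact two-sided permutation over libraries. Alternatives were DESeq2 1.42.0, limma 3.58.1 voom, other scalings and filters, single libraries left out, the mouse as a block and, added after seeing the data, removal of a gene length trend. The code was tested on simulated data.

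The labels give the same donor numbers to both groups, so libraries of the same number came from the same mouse; deviations from the group means correlated at 0.0898, 0.192 and 0.195 within mice. Replicates of a group differed beyond sampling noise (chi-square per gene 10.2 to 72.3). Totals of 12881962 to 21997078 reads limit precision for low genes only; PCR reads without molecular identifiers are not independent molecules. Every factor and binding protein gene is named; library values are given for paralog pairs, binding proteins, uncalled members and, per role, the most changed and most abundant gene. Of the other lists, up to 3 called genes a direction with the largest changes and at least 10 CPM in the higher group are named, apart from genes stated to be singled out. The members and lists were chosen with earlier results of these data known. Promoter windows came from RefSeq on GRCm38.p6 and gene positions from GENCODE vM21 on GRCm38. Entries absent from the promoter table were left out.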

Additional observations from a re-analysis of the deposited data

How the results depend on the processing

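The 17 higher factor genes were 17 under DESeq2, limma voom, other scalings and other filters, and 16 to 21 when single libraries were left out. All changed factors ranged from 18 to 25 then, beside 41.9% to 57.6% of all genes tested. Of the genes called, 18 kept their call and direction in every refit without a single library. With the mouse as replicate block 21 factors were called, 17 higher and 4 lower, beside 53.5% of all genes tested. Besides the lost calls of Eif2b2 and Eif4ebp3 the block changed no call of a factor or binding protein. The 5 lower genes were 4 under DESeq2, limma voom, median-of-ratios scaling and total counts, each without Eif2b2, 3 without the low-count filter and 2 to 4 without single libraries. The median log2 fold change of 0.20 ranged from 0.19 to 0.30 without single libraries, with 0.30 without vehicle 2. With the length trend removed Eif4ebp1 was called lower (adjusted p = 0.0469). With the block added Eif4ebp1 was no longer called, and Eif4b (adjusted p = 0.0437) and Eif5b (adjusted p = 0.028) were called higher. A required log2 change of 1 or more in either direction left 5 factors, 5 higher and 0 lower, 7 partners, 2 elongation and termination genes and 3081 of all genes. The paralog differences kept their sign without single libraries except Eif4g1 over Eif4g2 (-0.23 to 0.19) and Eif4ebp1 over Eif4ebp2 (-0.12 to 0.29).

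Genes whose direction turned were all uncalled. Eif3m had 0.01 and was -0.0202 under limma voom, -0.0199 under the 10 CPM filter, -0.018 under the block, -0.17 with the length trend removed, with or without the block, and -0.26 to 0.15 without single libraries. Eif3e was -0.015 under limma voom, -0.0201 under the 10 CPM filter, -0.016 under the block, -0.11 with the length trend removed, -0.12 with the block added, and -0.21 to 0.13 without single libraries. Eif3i was -0.021 with the length trend removed, -0.023 with the block added, and -0.046 to 0.28 without single libraries. Eif3h was 0.012 without the filter and -0.25 to 0.10 without single libraries. The ranges without single libraries were -0.072 to 0.21 for Eif2s2, -0.15 to 0.22 for Eif2a, -0.19 to 0.045 for Eif3k and -0.33 to 0.093 for Eif3a. The cause was not tested. The 3 libraries a group limit what can be called, and the exact tests cannot pass 0.05.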
